A study of Homo sapiens with 8 samples.

Results

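Interferon-stimulated genes were examined in ZR-75-1 cells, a human luminal breast cancer line, after stable knockdown of EI24, an endoplasmic reticulum protein with a role in autophagy. Interferons bind receptors on the cell surface, and the receptor-bound kinases JAK1 and TYK2 then phosphorylate STAT proteins. A complex of STAT proteins with IRF9 binds the interferon-stimulated response element (ISRE) in the promoters of these genes. Their products sense viral RNA, block viral translation and replication, tag proteins with ISG15 or carry the signal further, and many tumor cells keep some of them on without infection. The members were a fixed list of 46 gene symbols, looked up in the annotation of the array. The list was chosen with earlier results of these data known. Of the 46, 44 were measured by a probe set with 1 gene symbol, among 18417 genes in all. STAT2 is not analysed here, and GBP1 shares its probe set with other symbols and was left out.

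Total RNA came from 4 lines with 2 arrays each, 8 in all. The tested lines were 2 independent clones that carry an shRNA against EI24 (ZR-shEI24 clone 1 and clone 2). The controls were cells with an shRNA against GFP (shGFP) and parental cells without shRNA, and no line received a chemical treatment. Each ZR-shEI24 line is 1 clone, so a property of a clone and an effect of the knockdown cannot be told apart within that clone. Values are log2 intensities, so a difference of 1 is 2-fold. Whether the duplicate arrays of a line were separate cultures is not given in the sources used here, so the p-values cover the spread among these arrays alone, and that spread may be technical.

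EI24 itself had log2 intensities of 8.64 and 8.43 in clone 1 and 9.25 and 9.19 in clone 2, against 11.97 and 11.91 in shGFP cells and 12.08 and 12.09 in parental cells. Many genes outside the list also differed between the clones and the controls, so the first count of members in each comparison stands beside the share of all genes with the same call. The labelled identity was checked with marker genes. All 8 luminal epithelial markers were lower in the clones against both controls, with summed levels of 13.10 and 13.73 in the clones and 15.48 and 15.65 in shGFP and parental cells. The estrogen receptor gene ESR1 was at 5.81 to 6.11 in the clone arrays, in the range of background, and at 10.59 to 10.78 in the control arrays. The part of this difference in luminal markers in the results below was not tested. Of 7 measured leukocyte markers, CD68 and CD14 were higher against both controls and the others were not called against both. The summed level was 12.20 and 12.11 in the clones, against 9.72 and 9.77 in shGFP and parental cells. CD68 made up most of that sum in the clones, at means of 11.94 and 11.84, against 7.94 and 8.08 in shGFP and parental cells. The mesenchymal markers VIM and FN1 were higher against both controls, by 6.20 and 5.05 against shGFP cells, and the other 4 of that list were not called against both. The summed mesenchymal level was 13.87 and 13.92 in the clones, against 9.90 and 10.04 in shGFP and parental cells, and the part of these markers in the results was not tested. PTPRC, which marks all leukocytes, lay between 4.20 and 4.54 in all 8 arrays, near background. It passed as higher against shGFP cells (0.21, limma adjusted p = 0.043) and did not pass against parental cells (0.13). In bulk RNA, fewer cells of a type and less RNA per cell cannot be told apart.

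Most interferon-stimulated genes had higher levels after EI24 knockdown than in either control. Against shGFP cells 39 of the 44 rose (26.8% of all genes did) and 2 fell (29.0% of all genes). Against parental cells 38 rose (25.1% of all genes) and 2 fell (30.8% of all genes). These counts are at an adjusted p under 0.05 from limma, and the comparisons share the ZR-shEI24 arrays. Against both controls at once 37 members rose (20.8% of all genes) and 2 fell (25.8% of all genes). The median log2 difference of the members was 1.40 against shGFP cells and 1.38 against parental cells, where the median over all genes was 0.08 and 0.05. With a limit of at least 2-fold against both controls, 27 members rose (7.34% of all genes) and 0 fell (7.21% of all genes), although limma called 2 of them lower without the limit, also at an unadjusted p under 0.05. All 4 ZR-shEI24 arrays lay above all 4 control arrays for 37 members (23.8% of all genes) and below them for 2 (26.9% of all genes). These 37 are not quite the same genes as those called higher, since EPSTI1 was called but overlapped and CMPK2 did not pass against parental cells. Each call against shGFP and against parental cells kept its sign within replicate number 1 and within replicate number 2 (41 of 41 and 40 of 40). The calls were made on these same arrays, so the split adds no separate support.

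**Figure D1:**
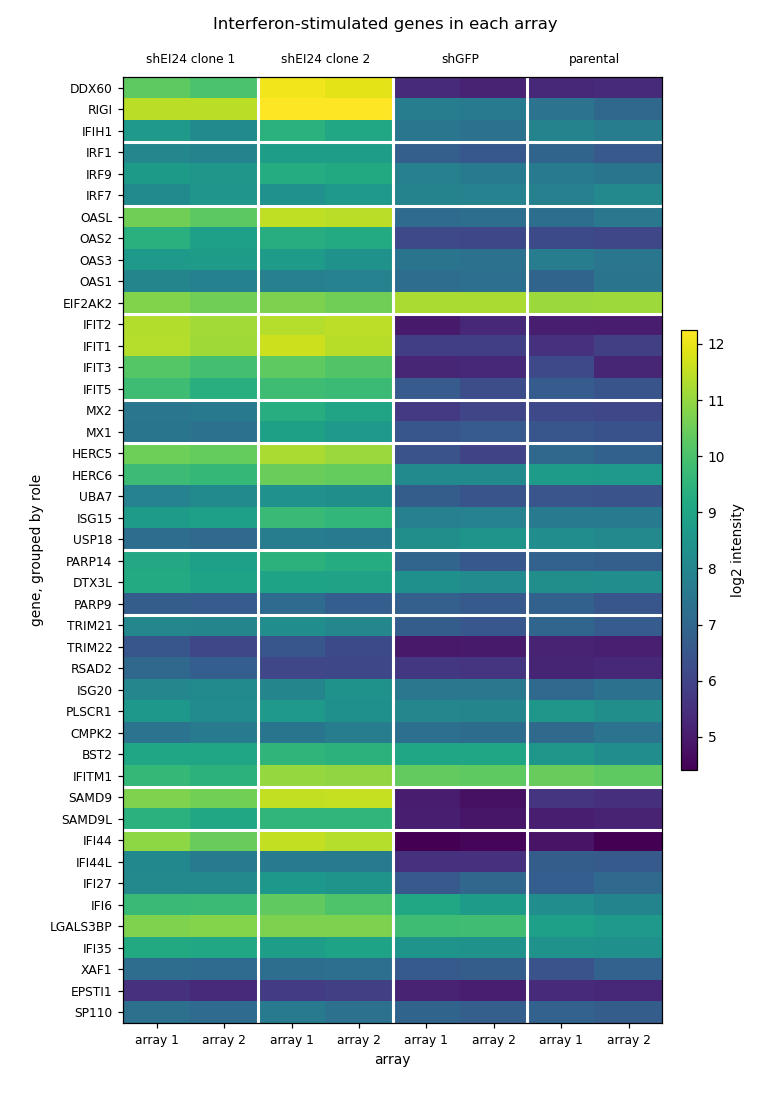
Heatmap of the log2 intensity of the 44 measured interferon-stimulated genes (rows, grouped by role and set apart by white lines) in the 8 arrays (columns, 2 for each line). The change in color between the ZR-shEI24 and the control arrays is widest for IFI44, at 10.43 to 11.54 in the clones and 4.41 to 4.82 in the controls, while EIF2AK2 is bright in every array.

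Some of these genes were barely detectable in the controls. The level of background was taken from 341 olfactory receptor genes, which breast cells are not known to use, and a member counted as near background where the mean of its line lay under the 95th percentile of those genes (6.64 to 6.76 over the 4 lines). By that measure 3 members were near background in clone 1 and 3 in clone 2, against 21 in shGFP cells and 15 in parental cells. From the ranks of genes beside the limit, about 30.2% of all genes lay under it in shGFP cells and 28.7% in parental cells. In clone 1 about 27.8% did and in clone 2 at most 27.7%. The count in parental cells was thus near the share of all genes. For 12 members both controls were near background and both clones above it, among them the IFIT genes, SAMD9, SAMD9L, DDX60 and IFI44. The share of all genes with that pattern was not counted. Log2 differences of genes near background in the controls understate the change, because the control value holds mostly background. The median member stood at 8.73 in clone 1 and 9.17 in clone 2, against 6.78 in shGFP cells and 6.87 in parental cells.

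A core of the ISRE was common in the promoters of these genes. The core searched was GAAANNGAAA on either strand (N is any base), in the 250 bases upstream of each start site in RefSeq (GRCh38.p14), and matches could overlap. Of the 46 members 38 were in the promoter table, and 24 of them (63.2%) held the core before at least 1 start, which was so for 1014 of all 27305 genes (3.71%). The measured members IFIT2, OASL, OAS2, MX2, UBA7, TRIM22, IRF7 and USP18 had no promoter listed and are left out of these motif counts and medians. The GAS motif TTCNNNGAA, which STAT dimers bind, was held by 12 of the 38 (31.6%), against 2208 of all genes (8.09%). A match is a description of the letters and does not show that a factor bound there. Among measured members the 23 with an ISRE core had a median log2 difference to shGFP of 1.43, with 15 at least 2-fold higher, and the 13 without had 0.73, with 6 at least 2-fold higher. Members without the core included RIGI, SAMD9L, HERC6 and TRIM21, which rose, and EIF2AK2, which fell. The ranges overlapped widely (-0.08 to 6.60 with the core and -0.63 to 4.44 without). For GAS the order was the reverse. The 12 members with GAS had a median of 0.90, with 6 at least 2-fold higher. The 24 without GAS had 1.40, with 15 at least 2-fold higher. The share of all genes at least 2-fold higher against shGFP cells alone was not counted. The stretches that follow show the core, in capitals, upstream of the most distal listed start, with the sequence on the strand of the gene. IFI44, SAMD9 and DDX60 are the 3 that rose most among members with a listed promoter and the core at that start. IFITM1 is shown as the member with the core and the lowest difference to shGFP, which did not pass the test. IFIT1 and ISG15 were added after their values were seen, because each holds cores that adjoin or overlap.
IFI44, chr1:78649741-78649788, plus strand: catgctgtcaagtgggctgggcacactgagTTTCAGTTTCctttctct
SAMD9, chr7:93118076-93118145, minus strand: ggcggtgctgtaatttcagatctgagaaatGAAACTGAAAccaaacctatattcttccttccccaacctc
DDX60, chr4:168318766-168318870, minus strand: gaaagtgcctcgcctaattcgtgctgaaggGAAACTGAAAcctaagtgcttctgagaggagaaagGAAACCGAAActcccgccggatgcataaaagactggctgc
IFITM1, chr11:313970-314039, plus strand: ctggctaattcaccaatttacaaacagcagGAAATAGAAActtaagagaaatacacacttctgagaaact
IFIT1, chr10:89392477-89392559, plus strand: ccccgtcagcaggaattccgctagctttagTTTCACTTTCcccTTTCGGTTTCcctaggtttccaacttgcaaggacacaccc
ISG15, chr1:1013354-1013429, plus strand: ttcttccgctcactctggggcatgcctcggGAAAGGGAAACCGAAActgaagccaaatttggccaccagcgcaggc
In IFI44 and IFIT1 the core reads on the opposite strand, and in ISG15 the 2 cores share bases. The core began 18 bases before the start in IFI44, 136 in SAMD9, 88 and 53 in DDX60, 40 in IFITM1, 116 and 103 in IFIT1 and 113 and 107 in ISG15.

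The sensors of viral RNA all rose in ZR-shEI24 cells. RIGI, the helicase that recognizes viral RNA with a triphosphate end, had log2 intensities of 11.42 and 11.44 in clone 1 and 12.25 and 12.25 in clone 2, against 7.73 and 7.60 in shGFP cells and 7.40 and 7.07 in parental cells. The groups lay far apart, and the 2 arrays of a clone were nearly equal. It rose by 4.18 against shGFP cells (standard error, SE, 0.10, limma adjusted p = 4.4e-09) and by 4.61 against parental cells. DDX60, a helicase-like protein of the same response, had 10.32 and 10.04 in clone 1 and 12.07 and 11.92 in clone 2, against 5.38 and 5.17 in shGFP cells and 5.29 and 5.38 in parental cells. Its controls were near background and its clones differed from each other, and the rise was 5.81 against shGFP cells (SE 0.11, limma adjusted p = 1.3e-09) and 5.75 against parental cells. IFIH1, the sensor of long double-stranded RNA, rose less, by 1.43 against shGFP cells and 1.01 against parental cells.

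Of the transcription factors, IRF1 and IRF9 rose clearly and IRF7 little. IRF9, a DNA-binding subunit of the complex at the ISRE, had 8.69 and 8.56 in clone 1 and 9.26 and 9.17 in clone 2, against 7.82 and 7.69 in shGFP cells and 7.67 and 7.45 in parental cells. Every clone array was above every control array, by a mean of 1.17 over shGFP cells (SE 0.09, limma adjusted p = 6.3e-06) and 1.36 over parental cells. IRF1, an interferon-induced factor that itself binds related elements, had 8.05 and 7.93 in clone 1 and 8.76 and 8.80 in clone 2, against 6.79 and 6.58 in shGFP cells and 6.94 and 6.59 in parental cells. Its groups did not overlap, and it rose by 1.70 against shGFP cells (SE 0.11, limma adjusted p = 1.9e-06) and by 1.62 against parental cells. IRF7, the factor that amplifies type I interferon genes, had 8.13 and 8.49 in clone 1 and 8.37 and 8.64 in clone 2, against 7.92 and 7.90 in shGFP cells and 7.84 and 8.11 in parental cells. The lowest clone array barely exceeded the highest control array. The rise of 0.50 against shGFP cells (SE 0.13, limma adjusted p = 0.0097) no longer passed without either shGFP array (adjusted p = 0.052 and 0.059), and that of 0.44 against parental cells no longer passed without parental replicate 1 (0.30, adjusted p = 0.18).

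The IFIT genes, whose proteins bind foreign RNA and block its translation, rose together. IFIT2 had 11.35 and 11.17 in clone 1 and 11.39 and 11.46 in clone 2, against 4.99 and 5.30 in shGFP cells and 5.08 and 5.04 in parental cells. IFIT1 had 11.36 and 11.14 in clone 1 and 11.64 and 11.41 in clone 2, against 5.87 and 5.88 in shGFP cells and 5.51 and 5.89 in parental cells. For IFIT3, 10.19 and 9.91 in clone 1 and 10.30 and 10.12 in clone 2 stood against 5.26 and 5.27 in shGFP cells and 6.15 and 5.24 in parental cells. All 3 were high in the 4 clone arrays and near background in both controls, and parental replicate 1 was the highest control for IFIT3. IFIT2 rose by 6.20 (SE 0.10), IFIT1 by 5.51 (SE 0.12) and IFIT3 by 4.86 (SE 0.21) against shGFP cells, with adjusted p = 9.3e-10, 3.2e-09 and 1.4e-07 from limma. IFIT5 rose by 3.23 against shGFP cells and 3.11 against parental cells. The 4 genes lie next to each other on chromosome 10, with at most 1 gene between neighbors in the order of RefSeq, and none of them differed between the clones by the test.

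**Figure D2:**
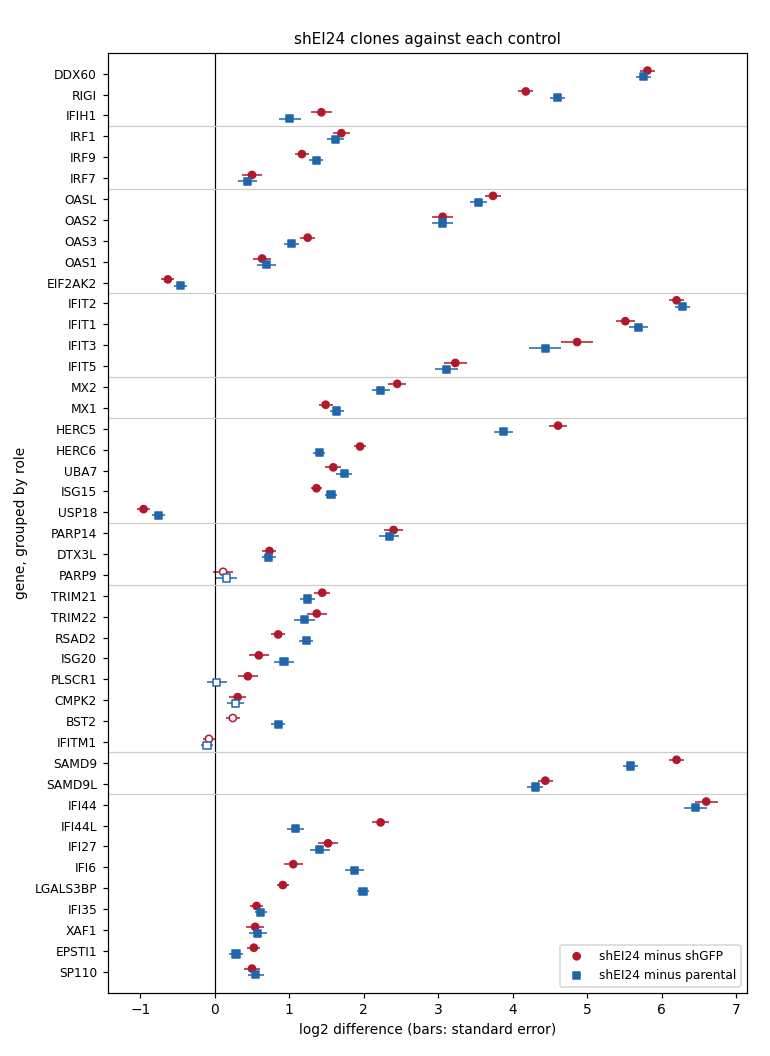
Log2 difference of the ZR-shEI24 clones to shGFP cells (red circles) and to parental cells (blue squares) for each measured interferon-stimulated gene, with standard errors as bars; filled symbols had an adjusted p under 0.05. The differences span -0.96 for USP18 to 6.60 for IFI44 against shGFP cells, and IFITM1 and PARP9 have open symbols in both comparisons.

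Among the OAS genes and PKR, the increases varied widely and 1 member fell. The OAS enzymes make the oligoadenylates that activate RNase L, while OASL lacks that activity and enhances signaling by RIGI. OASL had 10.54 and 10.28 in clone 1 and 11.50 and 11.44 in clone 2, against 7.16 and 7.25 in shGFP cells and 7.23 and 7.56 in parental cells. No arrays overlapped between the groups, and OASL rose by 3.74 against shGFP cells (SE 0.11, limma adjusted p = 1.5e-08) and by 3.54 against parental cells. OAS2 rose by 3.06, OAS3 by 1.25 and OAS1 by 0.63 against shGFP cells, though OAS1, OAS3 and OAS2 are direct neighbors on chromosome 12. EIF2AK2, which encodes PKR, the kinase that stops translation on double-stranded RNA, had 10.75 and 10.54 in clone 1 and 10.69 and 10.54 in clone 2, against 11.27 and 11.25 in shGFP cells and 11.08 and 11.11 in parental cells. It was bright in every array and lower in all 4 clone arrays. The difference was -0.63 against shGFP cells (SE 0.09, limma adjusted p = 0.00023) and -0.46 against parental cells.

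Both antiviral GTPases of the dynamin family rose, more in clone 2 than in clone 1. MX2 had 7.50 and 7.58 in clone 1 and 9.28 and 8.99 in clone 2, against 5.73 and 6.05 in shGFP cells and 6.15 and 6.07 in parental cells. MX1 had 7.47 and 7.36 in clone 1 and 8.85 and 8.63 in clone 2, against 6.52 and 6.66 in shGFP cells and 6.50 and 6.38 in parental cells. Both genes were near background in the controls and reached intermediate levels in clone 1. MX2 rose by 2.45 (SE 0.12, limma adjusted p = 2.4e-07) and MX1 by 1.49 (SE 0.09, limma adjusted p = 1.4e-06) against shGFP cells, and by 2.23 and 1.64 against parental cells. With each line counted as 1 replicate, and shGFP and parental cells as the control, MX1 no longer passed (adjusted p = 0.057). Neither gene passed with the unpaired t-test named in the study's methods. Its adjusted p against shGFP and parental cells was 0.063 and 0.079 for MX2, and 0.12 and 0.10 for MX1.

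The ISG15 system showed its conjugating side up and its removing enzyme down. HERC5, the ligase that attaches the ubiquitin-like protein ISG15 to new proteins, had 10.52 and 10.39 in clone 1 and 11.25 and 11.08 in clone 2, against 6.40 and 6.01 in shGFP cells and 7.03 and 6.84 in parental cells. The clone arrays were all high and the shGFP arrays the lowest, and HERC5 rose by 4.61 against shGFP cells (SE 0.12, limma adjusted p = 7.8e-09) and by 3.87 against parental cells. HERC6, a related ligase, rose by 1.95 against shGFP cells, UBA7, the activating enzyme, by 1.59 and ISG15 itself by 1.36. USP18, which strips ISG15 from proteins and also damps signaling at the type I receptor, had 7.20 and 7.09 in clone 1 and 7.74 and 7.64 in clone 2, against 8.28 and 8.47 in shGFP cells and 8.24 and 8.10 in parental cells. All clone arrays were below all control arrays. The difference was -0.96 against shGFP cells (SE 0.09, limma adjusted p = 1.8e-05) and -0.76 against parental cells, but USP18 has a near-identical copy, USP41, and the probes may not separate them. With the unpaired t-test of the study's methods, USP18 no longer passed against parental cells (adjusted p = 0.086).

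SAMD9 and SAMD9L, adjoining genes on chromosome 7 that restrict poxviruses and cell growth, both changed strongly. SAMD9 had 10.74 and 10.58 in clone 1 and 11.54 and 11.57 in clone 2, against 5.04 and 4.77 in shGFP cells and 5.60 and 5.45 in parental cells. SAMD9L had 9.41 and 9.12 in clone 1 and 9.58 and 9.57 in clone 2, against 5.08 and 4.89 in shGFP cells and 5.05 and 5.19 in parental cells. Both genes were near background in both controls and high in all clone arrays. SAMD9 rose by 6.20 (SE 0.10, limma adjusted p = 8.8e-10) and SAMD9L by 4.44 (SE 0.10, limma adjusted p = 3.6e-09) against shGFP cells, and by 5.58 and 4.30 against parental cells.

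In the PARP9, DTX3L and PARP14 group, which joins ADP-ribosylation and ubiquitin in the interferon response, the 3 genes did not move alike. PARP14 rose by 2.40 against shGFP cells and 2.34 against parental cells, and DTX3L by 0.73 and 0.72. PARP9, which forms a complex with DTX3L and adjoins it on chromosome 3, had differences of 0.11 and 0.16 that did not pass (adjusted p = 0.51 and 0.36 from limma), at 6.50 to 7.15 in all 8 arrays. That level is close to background, where a change would be compressed.

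The factors that act on viral entry, replication and release changed modestly and not together. Of 8 genes, 4 rose against both controls (20.8% of all genes did) and 0 fell (25.8% of all genes), with no difference below 0 at an unadjusted p under 0.05 from limma. TRIM21, a cytosolic antibody receptor, rose by 1.44 against shGFP cells. TRIM22 rose by 1.37 but stayed near background in all 4 lines. RSAD2, the viperin gene, rose by 0.85, near background in clone 2 and in both controls, and the exonuclease gene ISG20 by 0.59. PLSCR1 and CMPK2 passed against shGFP cells, with 0.44 and 0.31, and not against parental cells, with 0.03 and 0.28. BST2, which tethers budding virus, passed against parental cells with 0.85 and not against shGFP cells with 0.24. With the replicate number as a block, CMPK2 also passed against parental cells (limma, adjusted p = 0.020) and BST2 against shGFP cells (adjusted p = 0.026). IFITM1, which hinders fusion of virus with the cell membrane, had 9.62 and 9.45 in clone 1 and 11.01 and 10.95 in clone 2, against 10.36 and 10.32 in shGFP cells and 10.42 and 10.31 in parental cells. Clone 1 lay below and clone 2 above every control array, so the mean of the clones hid opposite differences (-0.80 for clone 1 and 0.64 for clone 2 against shGFP cells). Its paralogs IFITM2 and IFITM3 are close in sequence and may share signal.

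All 9 remaining interferon-induced genes rose against both controls, where 20.8% of all genes did. IFI44, a protein of the cytoplasm that is strongly induced by interferon, had 10.93 and 10.43 in clone 1 and 11.54 and 11.36 in clone 2, against 4.42 and 4.52 in shGFP cells and 4.82 and 4.41 in parental cells. Its controls were near background, and all clone arrays were high. IFI44 rose by 6.60 against shGFP cells (SE 0.16, limma adjusted p = 3.9e-09), a 96.9-fold difference, and by 6.45 against parental cells. IFI44L, its direct neighbor on chromosome 1, had 8.06 and 7.65 in clone 1 and 7.69 and 7.60 in clone 2, against 5.53 and 5.52 in shGFP cells and 6.72 and 6.62 in parental cells. The parental arrays lay between the clones and shGFP cells, and IFI44L rose by 2.23 against shGFP cells (SE 0.11, limma adjusted p = 3.6e-07) but by 1.08 against parental cells. LGALS3BP, a secreted glycoprotein, had 10.74 and 10.78 in clone 1 and 10.70 and 10.71 in clone 2, against 9.80 and 9.84 in shGFP cells and 8.85 and 8.64 in parental cells. The clones were alike and the controls differed from each other, with a rise of 0.91 against shGFP cells (SE 0.08, limma adjusted p = 1.4e-05) and 1.99 against parental cells. IFI6, which protects the endoplasmic reticulum membrane from viral remodeling, had 9.70 and 9.74 in clone 1 and 10.35 and 10.10 in clone 2, against 9.08 and 8.75 in shGFP cells and 8.24 and 7.95 in parental cells. It rose by 1.05 against shGFP cells (SE 0.13, limma adjusted p = 9.1e-05) and by 1.87 against parental cells, without overlap of arrays. The other 5 (IFI27, IFI35, XAF1, EPSTI1 and SP110) rose by 0.50 to 1.52 against shGFP cells, and EPSTI1 stayed near background in all 4 lines.

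**Figure D3:**
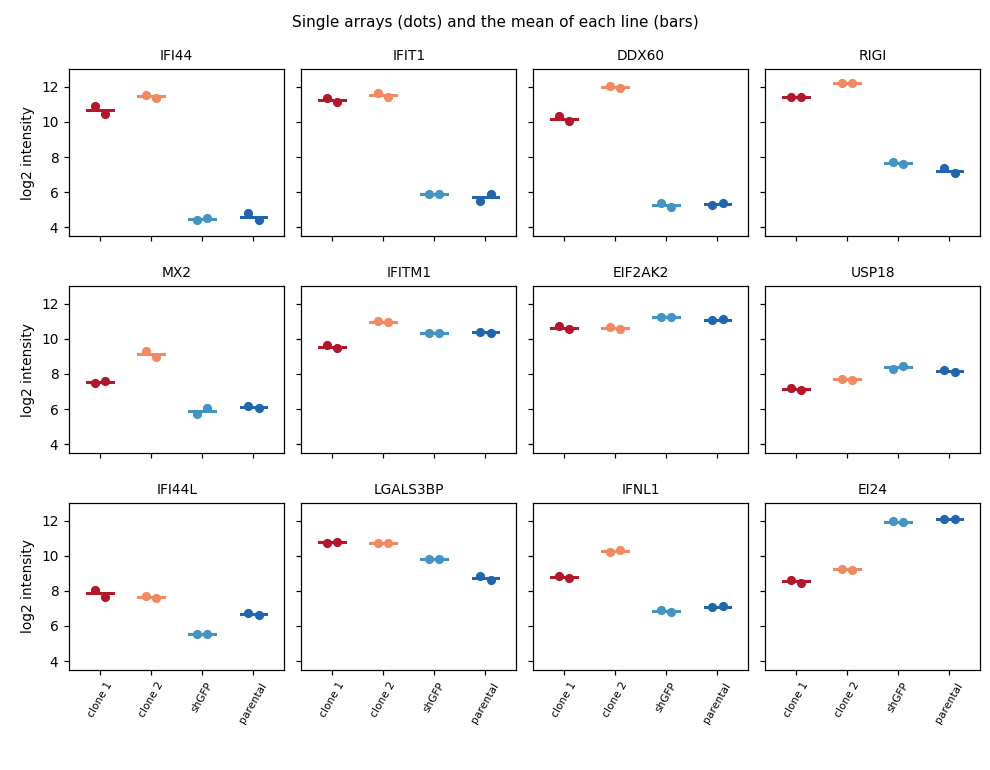
Log2 intensity of 10 interferon-stimulated genes, the interferon gene IFNL1 and EI24 in single arrays (dots) and as the mean of each line (bars), with the ZR-shEI24 clones left of shGFP and parental cells. In IFITM1 clone 1 lies below and clone 2 above the controls, while in IFI44L and LGALS3BP the controls stand apart from each other.

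Whether the independent clones carried the same increase was asked with clone 1 minus clone 2. Of the 44 members 17 were lower in clone 1 (5.88% of all genes were) and 1 was higher (9.29% of all genes), at an adjusted p under 0.05 from limma. The median difference was -0.29 over the members and -0.02 over all genes. The widest differences were those of DDX60 at -1.82 (SE 0.12, limma adjusted p = 6.9e-05), MX2 at -1.60 (adjusted p = 0.00019), IFITM1 at -1.44 (adjusted p = 6.2e-05), MX1 at -1.33 (adjusted p = 0.00017), OASL at -1.06 (adjusted p = 0.0013) and SAMD9 at -0.89 (adjusted p = 0.0016). All 3 sensors and both GTPases were lower in clone 1, and so were ISG15, HERC5, HERC6 and USP18 of the ISG15 system. With the methods' t-test after adjustment 0 members differed between the clones in either direction (1 higher and 15 lower in clone 1 at an unadjusted p under 0.05), and with a 2-fold limit 5 were lower. With the replicate block PARP14, SP110 and IFI6 were lower in clone 1 as well (limma, adjusted p = 0.024, 0.036 and 0.011). RSAD2 was the member higher in clone 1, by 0.81 (limma, adjusted p = 0.0019). Without clone 2 replicate 1, 11 members were lower in clone 1, and without clone 1 replicate 2, 2 were higher. The difference of IFI44 (-0.77) passed with all arrays but not without clone 1 replicate 2, clone 2 replicate 1 or clone 2 replicate 2 (limma, adjusted p = 0.0936, 0.105 and 0.05045). That of HERC5 (-0.71) did not pass without clone 1 replicate 2 or clone 2 replicate 1 (limma, adjusted p = 0.055 and 0.063), nor that of USP18 (-0.55) without clone 2 replicate 1 (adjusted p = 0.052). For EI24 mRNA the difference between the clones was -0.68 (limma, adjusted p = 0.0023), with less in clone 1. With 1 line of each kind, a difference between the clones cannot be told apart from one that follows the EI24 level.

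**Figure D4:**
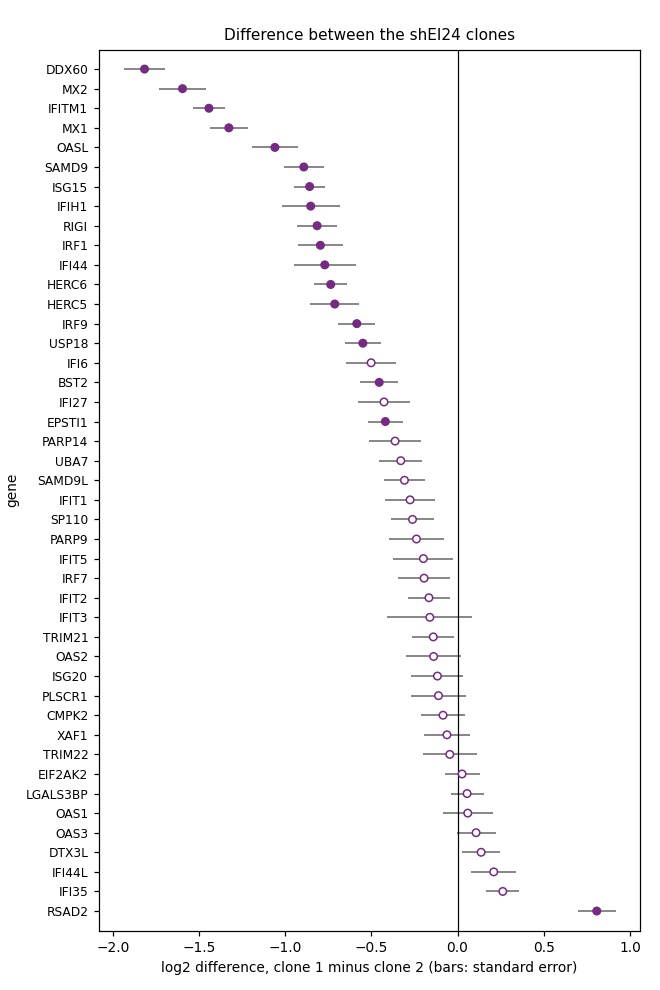
Log2 difference of clone 1 minus clone 2 for each measured interferon-stimulated gene, sorted, with standard errors as bars; filled symbols had an adjusted p under 0.05. The 17 filled symbols on the left reach from -0.42 for EPSTI1 to -1.82 for DDX60, and RSAD2 at 0.81 is the filled symbol on the right.

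A few members differed between the controls, 6.82% of them higher and 9.09% lower in shGFP cells. Whether these shares differ from those of all genes was not tested. Of the 44 members, 3 were higher in shGFP cells than in parental cells (3.21% of all genes) and 4 were lower (7.44% of all genes), at an adjusted p under 0.05 from limma, and with the replicate number as a block 5 were higher (RIGI and RSAD2 in addition) and 6 lower (IFIH1 and PLSCR1 in addition). With the methods' t-test after adjustment 0 differed in either direction (4 higher and 3 lower at an unadjusted p under 0.05), and with a 2-fold limit 1 was higher and 1 lower. The median difference was -0.03 over the members and -0.03 over all genes. LGALS3BP at 1.08 (adjusted p = 0.00048), IFI6 at 0.82 (adjusted p = 0.010) and BST2 at 0.61 were higher in shGFP cells, and IFI44L at -1.14 (adjusted p = 0.0016), HERC5 at -0.73 (adjusted p = 0.014), SAMD9 at -0.62 and HERC6 at -0.55 were lower. Without shGFP replicate 1 or without parental replicate 2, 1 member was higher in shGFP cells, and without shGFP replicate 2 or without parental replicate 1, 1 was lower. Without shGFP replicate 1 or parental replicate 2, IFI6 no longer passed (adjusted p = 0.091 and 0.070 from limma), and without shGFP replicate 2 or parental replicate 1 neither HERC5 (adjusted p = 0.12 and 0.11) nor SAMD9 (adjusted p = 0.12 and 0.099) did.

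Other genes of the pathway were read from lists of ligands, receptors, sensors, factors, inhibitors and further targets. In each list the counts of calls against both controls stand against 20.8% of all genes higher and 25.8% lower. Of 16 measured interferon genes, 3 rose against both controls, a share near that of all genes, and 13 did not pass against either. All 3 encode type III interferons, which act mainly on epithelial cells. IFNL1 had 8.83 and 8.72 in clone 1 and 10.19 and 10.33 in clone 2, against 6.90 and 6.79 in shGFP cells and 7.08 and 7.14 in parental cells. It was above every control array in both clones and higher in clone 2, with a rise of 2.67 against shGFP cells and 2.41 against parental cells. IFNL2 rose by 0.95 and IFNL3 by 0.93 against shGFP cells, and as these 2 are near-identical their signals may not be separate. The 13 others, among them IFNB1 and IFNG, were near background in all 4 lines, where a change in low amounts would not be seen. With the replicate number as a block, IFNK also passed against both controls (0.30 and 0.31, limma adjusted p = 0.038 and 0.036), IFNA13 against shGFP cells (0.27, adjusted p = 0.022) and IFNA5 against parental cells (0.17, adjusted p = 0.036), all at background levels. IFNB1 was at 4.54 to 4.69 in the clone arrays and 4.40 to 4.75 in the control arrays. Of the plasmacytoid dendritic cell markers, CLEC4C was near background in all lines, and neither measured marker passed the test.

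Of 9 genes for receptors and kinases 6 rose against both controls and 1 fell. IFNGR2, a chain of the type II receptor, rose by 1.30 against shGFP cells, IFNAR2, a chain of the type I receptor, by 0.97, and IFNLR1, the specific chain of the type III receptor, by 0.68. The kinase gene JAK1 rose by 0.81 against shGFP cells, while its difference of 0.21 to parental cells passed only with the replicate block (limma, adjusted p = 0.014, against 0.051 without it). IFNAR2 averaged 7.80 in clone 1 and 8.86 in clone 2, against 7.36 in shGFP cells and 7.72 in parental cells, so its arrays overlapped with those of parental cells, and the clones differed by -1.06 (limma, adjusted p = 0.0020). JAK2, a kinase of the type II receptor, had a difference of -1.29. Of 13 genes of nucleic acid sensing, 9 rose and 2 fell against both controls. The DNA sensors led, with IFI16 at 5.69, CGAS at 3.55 and AIM2 at 3.32 against shGFP cells. TBK1, the kinase that activates IRF3, was lower by a difference of -1.04, and MAVS, the adaptor of RIGI on mitochondria, by -0.20. Of 6 other STAT and IRF genes, 2 rose against both controls (STAT3 by 1.63 and IRF2 by 1.03 against shGFP cells) and 0 fell.

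Of 7 negative regulators, 1 rose and 4 fell against both controls. SOCS3, an inhibitor of the JAK kinases, rose by 0.85 against shGFP cells. The phosphatase gene PTPN6 was at -1.44, CISH at -0.82, PTPN2 at -0.69 and PIAS1 at -0.57. Of 41 measured genes in a list of further interferon targets, 30 rose and 4 fell against both controls. DDX60L rose by 4.61, and the chemokine genes CXCL10 and CXCL11 by 4.51 and 4.40 against shGFP cells. CXCL10 was higher in clone 1 (10.08 and 9.58) than in clone 2 (8.42 and 8.26), against 4.67 and 4.48 in shGFP cells and 4.83 and 4.84 in parental cells. Those that fell were ADAR, the editor of double-stranded RNA, at -0.94, IFI30 at -0.71, PNPT1 at -0.57 and LY6E at -0.37. The arrays of LY6E overlapped, with means of 9.79 in clone 1 and 10.63 in clone 2, against 10.58 in shGFP cells and 10.89 in parental cells, and the clones differed by -0.85 (limma, adjusted p = 0.00058). The members' median of 1.40 against shGFP cells stood beside 0.85 for these further targets, 1.38 for the sensing genes, 0.68 for the receptors, 0.10 for the ligands and -0.57 for the negative regulators.

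**Figure D5:**
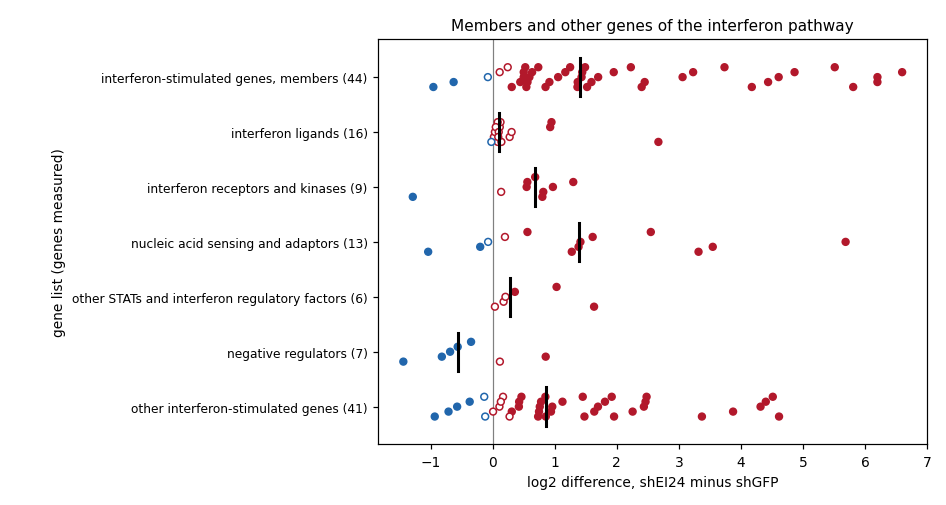
Log2 difference of the ZR-shEI24 clones to shGFP cells for the measured members (top row) and for the genes of 6 pathway lists (rows, with the number measured); filled dots had an adjusted p under 0.05, red is higher and blue lower in the clones, and black lines are medians. The members lie mostly right of 0, and 13 of the 16 ligand genes sit near 0 with open dots.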

How the data were processed

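The deposited values are log2 intensities from Affymetrix arrays, 1 per transcript cluster and array; the authors made them with GCOS and RMA, per the labels, versions not given in the sources used here. In RMA the background is subtracted, the arrays are brought to nearly 1 distribution and the probes of a cluster are summarized, so that cells with more or less RNA in total would look alike. The array named in the methods is the human exon 1.0 st array, whereas the identifiers matched the annotation of the related Human Gene 1.0 ST array. Of 33297 clusters 19460 had 1 gene symbol, 1754 several and 12083 none. The brightest cluster with 1 symbol per gene was kept, giving 18417 genes. In labels of the ZR-shEI24 arrays the number before the hyphen was read as the clone, and the one after it as the replicate.

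A mean per line was fitted to all 8 arrays with limma (version 3.58.1, R 4.3.3; functions lmFit and eBayes, 4 residual degrees of freedom), and p-values were adjusted by Benjamini-Hochberg over all genes, with a threshold of 0.05. The number of arrays limits the precision. Array medians over all clusters were 7.28 to 7.39. Arrays with the same replicate number deviated together from the means of their lines in each pair of lines (r = 0.25 to 0.59 across genes, which are not independent), so the numbers were taken to pair the samples, and a fit with that block was run beside. Upstream sequences and motif counts came from RefSeq promoters of GRCh38.p14, read with Python 3.11.15. The members and lists were chosen with earlier results of these data known. Members named with every array were the 8 largest rises and all falls called against both controls, the 6 largest differences between clones, the 4 between controls, the 3 with the highest mean and the transcription factors; of each pathway list up to 3 genes in each direction were named, and IFNLR1, IFNB1, IFNG, IFNK, IFNA5, IFNA13, PIAS1 and LY6E were added outside that rule. The procedure was checked on simulated data. Alternatives were shGFP and parental cells pooled as the control, each line as 1 replicate, only the lines compared, the replicate block and an intensity trend. Others were centring on the median, a second quantile normalization, a filter on dim genes and the mean over clusters. The methods' t-test, a 2-fold limit and leaving out each array were also run.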

Additional observations from a re-analysis of the deposited data

Results flagged for a closer look

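The difference between the ZR-shEI24 clones passed limma's test for 12 of the members named with their arrays, and these are given as clone 1 minus clone 2 on the log2 scale, with the difference of clone 1 and of clone 2 to shGFP cells. DDX60 differed by -1.82 (4.90 in clone 1 and 6.72 in clone 2) and MX2 by -1.60 (1.65 in clone 1 and 3.25 in clone 2). IFITM1 differed by -1.44 with opposite signs to shGFP cells (-0.80 in clone 1 and 0.64 in clone 2). MX1 differed by -1.33 (0.82 in clone 1 and 2.15 in clone 2) and OASL by -1.06 (3.21 in clone 1 and 4.27 in clone 2). SAMD9 differed by -0.89, RIGI by -0.81, IRF1 by -0.80 and IFI44 by -0.77, each higher than shGFP cells in both clones. HERC5 differed by -0.71 and IRF9 by -0.58, again above shGFP cells in both clones. USP18 differed by -0.55 and was below shGFP cells in both (-1.23 in clone 1 and -0.68 in clone 2). Both arrays of a clone may be technical repeats, and the part of the clones' difference in EI24 mRNA was not tested.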

How the results depend on the processing

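Among the named members, no difference that passed in the main fit turned its direction under any alternative. The other differences were not checked in this way. The methods' t-test and the 2-fold limit leave a difference as it is, so they could not turn it. Of the counts of members called under the alternatives, 161 stayed within 1.5 times their main value and 21 moved further. With the replicate block 40 rose and 2 fell against shGFP cells, 39 and 2 against parental cells, 39 and 2 against both controls, 1 was higher and 20 lower in clone 1, and 5 were higher and 6 lower in shGFP than in parental cells; beyond the 5, no other count moved by over 1.5 times with the block. Each member's call that changed with the block was a gain. Without dim genes 41 members were tested and 0 were higher in clone 1 (1 at an unadjusted p under 0.05 from limma), since that filter removes RSAD2. With the methods' t-test after adjustment, 29 rose against shGFP cells, 1 fell against parental cells and 1 against both controls, and 0 differed between the clones in either direction (1 higher and 15 lower unadjusted) or between the controls (4 and 3 unadjusted). With a 2-fold limit 0 fell against shGFP cells, 0 against parental cells and 0 against both, 0 were higher and 5 lower in clone 1, and 1 was higher and 1 lower in shGFP than in parental cells. Without any array in turn, counts against shGFP cells were 36 to 40 higher and 2 lower, against parental cells 36 to 39 and 2, and against both controls 36 to 38 and 2. For clone 1 against clone 2 they were 1 to 2 higher and 11 to 17 lower, and for shGFP against parental cells 1 to 4 higher and 1 to 5 lower. Of the named members' values, 991 kept their call and 58 no longer passed, of which 24 were with the methods' t-test and 17 with the 2-fold limit; the cause was not tested. The 2 arrays per line limit what small differences can show.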
